A study of Mus musculus with 14 samples.

Results

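The MHC class I genes described here are 8 of the 55359 genes in each count table: B2m, H2-K1, H2-D1, H2-T23, Tap1, Tap2, Tapbp and Nlrc5. They were chosen by symbol, as immune genes linked to the refinement of visual circuits, and each symbol matched 1 Ensembl ID. All are protein-coding genes, and all 8 passed the filter on low counts. A class I molecule is a heavy chain bound to the light chain β2-microglobulin and to a short peptide. B2m encodes the light chain, H2-K1 and H2-D1 encode the classical heavy chains, and H2-T23 encodes the non-classical heavy chain Qa-1. Tap1 and Tap2 form the transporter that moves peptides into the endoplasmic reticulum. Tapbp encodes tapasin, which holds the empty heavy chain at that transporter, and Nlrc5 encodes a transactivator of class I genes. Neurons of the developing visual system express class I molecules, which are known for a part in the sorting of retinal axons and in synapse removal in the visual thalamus.

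RNA of the superior colliculus, the midbrain target of the retina, was measured by poly-A selected bulk sequencing in ICR/CD-1 mice at postnatal day 6, with separate libraries from its superficial and its deep layers. This stock is outbred, and the labels name no mutation or transgene. All pups had an injection into the eye at postnatal day 0 to 1, of saline or of 50 mM carbenoxolone (cbx, a blocker of gap junctions used here to stop retinal waves), in 0.3 to 0.5 µL, and 3 brains were pooled for each library. There were 3 saline and 4 cbx libraries in each layer, and no group without an injection is used here. In bulk tissue, fewer cells of a type and less RNA per cell cannot be told apart.

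Total counts were 32004952 to 48776827 per library. Among the collicular and midbrain genes listed, Tfap2b, Slc17a6, Gad2 and Otx2 had the highest means, and the whole list summed to 1369 to 1721 CPM (counts scaled to each library's total with TMM factors) in every library. Same-numbered libraries of both layers of a treatment deviated together from their group means in all 7 pairs, so a number is taken as a pool, although the labels do not say so. The pair of cbx pool 4 was hardly told apart from another number (correlation 0.194 against 0.173). Saline pool 1 and cbx pool 4 stood apart in sex-linked genes. Xist, expressed in females, was at 1.94 CPM (superficial) and 0.572 CPM (deep) in saline pool 1, and Ddx3y, on the Y chromosome, had no counts in both libraries of cbx pool 4. Over all pools Ddx3y was at 30.4 to 70.7 CPM after saline and at 0 to 38.6 CPM after cbx, with cbx pool 2 the only cbx pool inside the saline range. A p-value here measures the spread between pooled libraries.

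The stretch before the start site is shown for 5 members, because B2m, H2-D1, H2-T23 and Tapbp were higher together in the superficial layer of cbx pools, and H2-K1 is a close relative of H2-D1. Each is the 180 bases before the start site from RefSeq's GRCm38.p6 promoter windows, read 5′ to 3′ on the gene's strand, and 6 of the 8 members have such a window. Their positions are chr2:122147507-122147686, plus strand, for B2m; chr17:34000348-34000527, minus strand, for H2-K1, the first of its 2 windows; chr17:35262914-35263093, plus strand, for H2-D1. H2-T23 is at chr17:36032702-36032881, minus strand, and Tapbp is at chr17:33919298-33919477, plus strand. Capitals mark matches on either strand to AANNGAAA (a core of interferon regulatory factor sites), GGGGATTCC (a form of the NF-kB site), TGACG (bound by CREB and ATF factors) and CCAAT (bound by NF-Y, ATTGG on the other strand).
B2m: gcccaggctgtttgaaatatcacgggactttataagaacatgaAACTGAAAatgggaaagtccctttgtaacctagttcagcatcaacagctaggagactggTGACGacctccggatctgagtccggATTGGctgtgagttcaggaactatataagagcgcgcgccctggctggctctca
H2-K1: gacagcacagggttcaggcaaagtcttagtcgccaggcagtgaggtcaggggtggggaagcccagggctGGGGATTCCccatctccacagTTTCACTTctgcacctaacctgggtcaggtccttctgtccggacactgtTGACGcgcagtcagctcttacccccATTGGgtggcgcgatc
H2-D1: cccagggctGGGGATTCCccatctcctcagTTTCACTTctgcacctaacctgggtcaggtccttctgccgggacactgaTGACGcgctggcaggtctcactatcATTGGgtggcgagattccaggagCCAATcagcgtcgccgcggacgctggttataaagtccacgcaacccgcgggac
H2-T23: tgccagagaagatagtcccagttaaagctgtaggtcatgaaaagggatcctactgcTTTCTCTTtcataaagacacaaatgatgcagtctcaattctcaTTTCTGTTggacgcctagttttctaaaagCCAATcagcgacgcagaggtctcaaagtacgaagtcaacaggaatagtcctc
Tapbp: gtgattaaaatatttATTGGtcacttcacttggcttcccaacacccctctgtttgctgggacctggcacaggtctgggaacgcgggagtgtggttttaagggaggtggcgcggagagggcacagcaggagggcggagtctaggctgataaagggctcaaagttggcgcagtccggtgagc
B2m, H2-K1 and H2-D1 each have TGACG followed by ATTGG with 20 bases between them. Of 32851 RefSeq promoter windows of 300 bases, 19 windows of 16 genes (0.0578%) hold that arrangement. These 3 members are among the 16 genes, as is H2-M3, another class I heavy chain. The spacing of 20 bases is that of the members themselves, so its rarity is a description. With 10 to 40 bases between the motifs, 163 windows (0.496%) match. As background, X2 and Y boxes laid out as in these 3 members belong to the promoter module through which Nlrc5 acts. The printed stretches of H2-T23 and Tapbp hold 1 CCAAT match each and no TGACG. Matches to AANNGAAA lie in B2m, H2-K1 and H2-D1, and 2 lie in H2-T23. GGGGATTCC was found only in H2-K1 and H2-D1 among the 6 members with a window. Over all windows, AANNGAAA occurs in 23.9%, GGGGATTCC in 0.25%, TGACG in 20.8% and CCAAT in 37.4%. The motifs share no bases in the stretches shown, and a match is a run of letters, not a measured binding site.

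H2-K1 and H2-D1 are near copies. Their windows were 88.3% identical over 239 aligned bases, and their coding sequences in GENCODE M21 were 91.4% identical over 1077 aligned bases. Of the 50-base words in a member's transcript, 8.79% for H2-K1, 14.3% for H2-D1 and 28.8% for H2-T23 also occur in transcripts of other genes. With 150-base words, the length of 1 read, these shares were 0% for H2-K1, 1.79% for H2-D1 and 0.831% for H2-T23. B2m and Nlrc5 had no shared word of either length. How such reads were counted is not known here, and class I alleles of an outbred stock can differ from the reference. The levels of the 3 heavy chains are therefore less certain than that of B2m.

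H2-D1 was the most abundant member per length of exon. It averaged 66.3 CPM per kb over the 14 libraries, with a range of 50.5 to 82.5, against 50.8 (SD 8.76, n = 14) for B2m, 8.97 (SD 1.63) for H2-K1 and 8.55 (SD 1.27) for Tapbp. Tap1 followed at 2.48 CPM per kb (SD 0.359) and Tap2 at 1.25 (SD 0.27), with H2-T23 at 0.307 (SD 0.131) and Nlrc5 at 0.113 (SD 0.021). In this order the ranges over libraries overlapped for the neighbours H2-D1 and B2m, H2-K1 and Tapbp, and H2-T23 and Nlrc5, although the H2-D1 level was above that of B2m within every library (1.035 to 1.88 times). The H2-D1 level was 5.57 to 9.90 times that of H2-K1 in single libraries. H2-T23 and Nlrc5 rested on 12 to 60 and 24 to 50 reads per library, so their values carry much counting error.

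**Figure D1:**
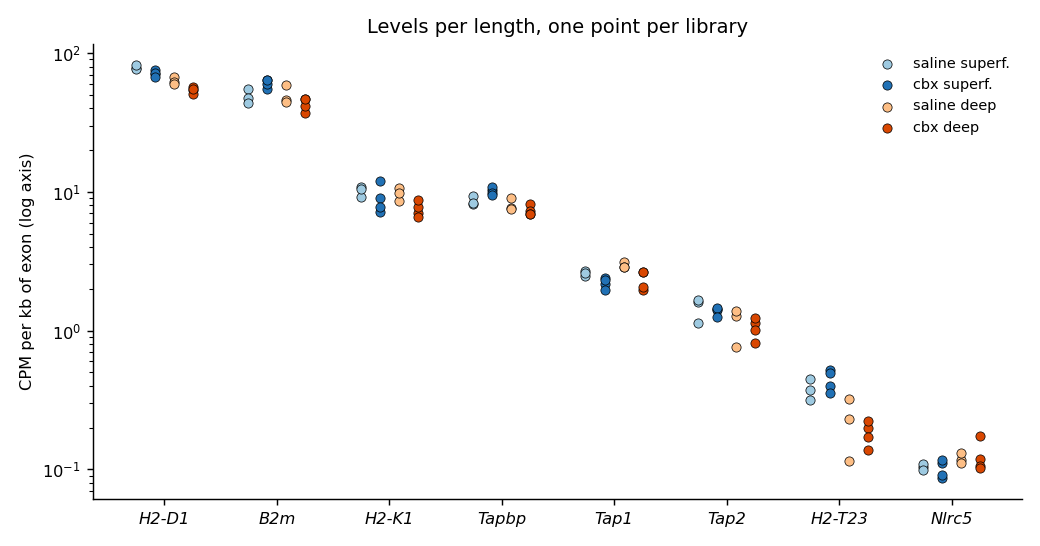
CPM per kb of exon on a log axis for the 8 members, with 1 point per library, coloured by group. H2-D1 and B2m lie above 30, H2-K1 and Tapbp share a level near 9, and H2-T23 and Nlrc5 lie lowest.

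B2m, the light chain, was highest in the superficial layer of cbx pools. In superficial libraries it was at 47.1, 40.9 and 37.8 CPM in saline pools 1 to 3 and at 55.4, 47.1, 51.9 and 55.4 CPM in cbx pools 1 to 4. In deep libraries it was at 50.9, 39.6 and 38.0 CPM after saline and at 40.2, 32.1, 35.5 and 40.0 CPM after cbx. The cbx superficial libraries were thus the highest group, touching the saline range only at saline pool 1, and each cbx pool had a higher superficial than deep value.

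H2-D1 separated the layers in both treatments. Its superficial libraries were at 203, 199 and 213 CPM after saline and at 194, 181, 185 and 172 CPM after cbx. Its deep libraries were at 174, 160 and 154 CPM after saline and at 148, 139, 130 and 143 CPM after cbx. Within each layer every cbx library lay below every saline library, and within each treatment every deep library lay below every superficial one.

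H2-K1, the other classical heavy chain, varied more between pools than between groups. It was at 26.8, 31.9 and 30.9 CPM in saline superficial and at 26.4, 20.9, 23.01 and 35.2 CPM in cbx superficial libraries. It was at 25.2, 31.3 and 28.7 CPM in saline deep and at 20.5, 19.4, 22.8 and 25.7 CPM in cbx deep libraries. H2-T23 was at 0.913, 1.29 and 1.08 CPM in saline superficial and at 1.02 to 1.49 CPM in cbx superficial libraries, against 0.33 to 0.921 CPM in saline deep and 0.398 to 0.648 CPM in cbx deep libraries. The groups of H2-K1 overlap, while those of H2-T23 are apart between the layers after cbx.

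Tapbp, like B2m, was highest in the superficial layer of cbx pools. It was at 33.8, 29.6 and 30.2 CPM in saline superficial and at 37.4, 39.6, 35.5 and 34.2 CPM in cbx superficial libraries. It was at 32.5, 27.6 and 27.4 CPM in saline deep and at 29.9, 26.4, 25.2 and 25.0 CPM in cbx deep libraries. All 4 cbx superficial libraries lay above all others.

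Tap1, a chain of the peptide transporter, was lower after cbx in both layers by range but not by the test. It was at 13.5, 14.6 and 14.2 CPM in saline superficial, at 11.8, 10.8, 13.03 and 12.7 CPM in cbx superficial, at 17.03, 15.6 and 15.8 CPM in saline deep and at 10.7, 11.3, 14.5 and 14.6 CPM in cbx deep libraries. It was highest in the saline deep libraries, and in each layer its cbx libraries lay below its saline libraries. Tap2 ranged from 2.87 to 6.29 CPM and Nlrc5 from 0.732 to 1.47 CPM over the 14 libraries. The treatments overlap within each layer for both.

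**Figure D2:**
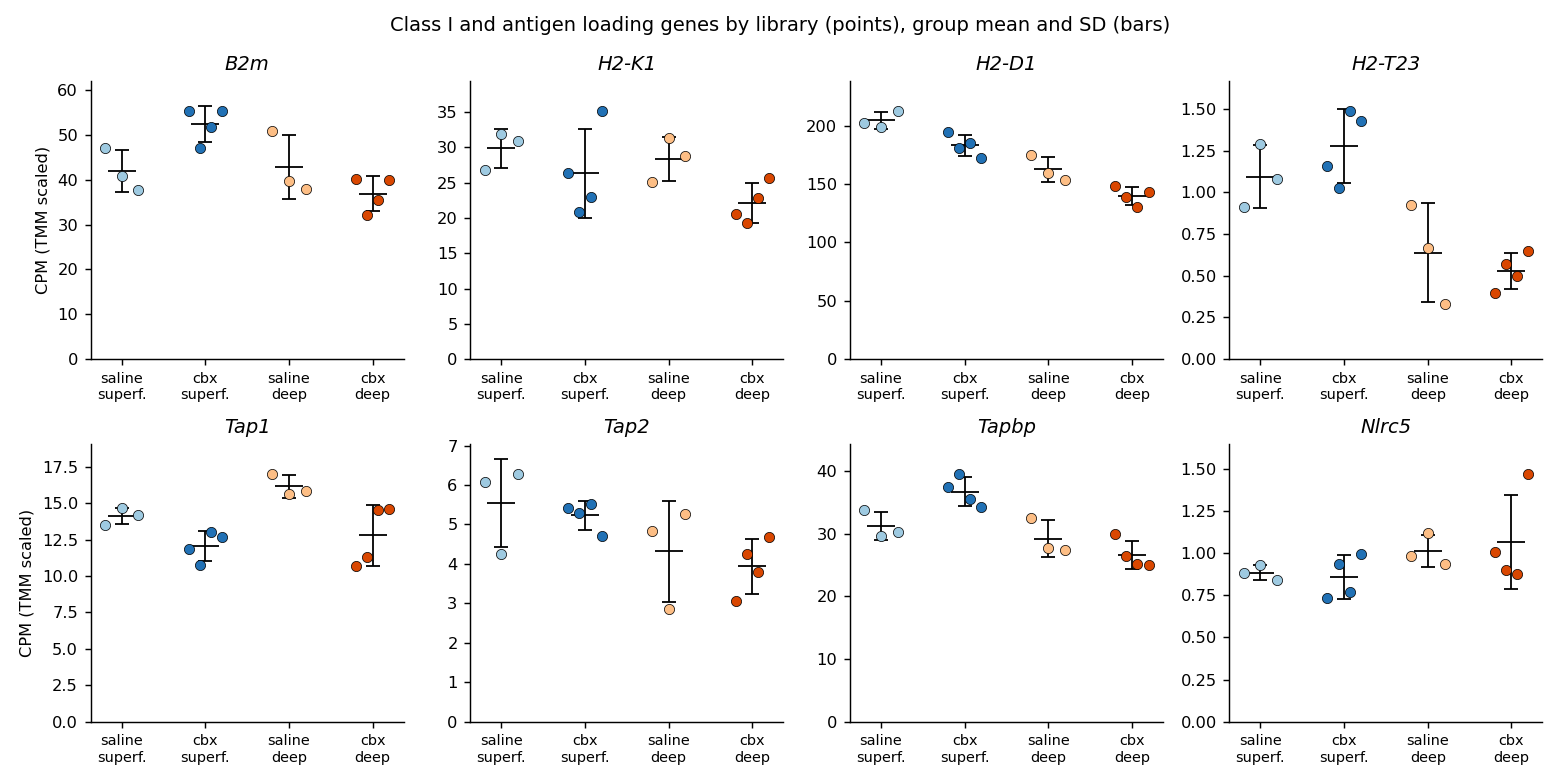
CPM of each member in every library (points) with group mean and SD (bars), for saline and cbx in the superficial (superf.) and deep layers; points within a group stand in order of pool number and each axis starts at 0. B2m and Tapbp are highest in cbx superficial libraries, and the H2-D1 libraries lie lower in the deep layer and, within each layer, lower after cbx.

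The first comparison asked which members differ in the retina-recipient superficial layer after cbx in the eye. None of the 8 passed the test there, against 4.33% of the 20330 genes tested (edgeR quasi-likelihood test, Benjamini-Hochberg adjusted p under 0.05). At an unadjusted p under 0.05 there were 3, B2m, H2-D1 and Tapbp, against 20.6% of all genes. All differences below are on the log2 scale. Mean B2m was 41.9 CPM in saline (SD 4.75, n = 3) and 52.4 CPM in cbx libraries (SD 3.94, n = 4), and the cbx minus saline difference was 0.32 with an SE of 0.107 (adjusted p = 0.0888 in edgeR). Tapbp differed by 0.23 with an SE of 0.0872 (adjusted p = 0.130 in edgeR), and H2-D1 had -0.16 with an SE of 0.065 (adjusted p = 0.164 in edgeR). The libraries of both treatments did not overlap for H2-D1, Tap1 and Tapbp, which is seen in 17.3% of all genes. The light chain and the classical heavy chains had estimates of opposite sign, with 0.32 for B2m, -0.16 for H2-D1 and -0.18 for H2-K1, while the non-classical H2-T23 had 0.22. Of these 4 none passed. The ratio of H2-D1 to B2m per kb was 1.43 to 1.88 in saline superficial and 1.035 to 1.28 in cbx superficial libraries.

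In the deep layer the members had estimates below 0 after cbx in 7 of 8 cases, with a median of -0.21 against 0.007 over all genes, and none passed the test. Of all genes, 1.83% did. At an unadjusted p under 0.05 in edgeR there were 3, H2-K1, H2-D1 and Tap1, against 15.3% of all genes. Mean H2-D1 was 163 CPM in saline (SD 10.7, n = 3) and 140 CPM in cbx libraries (SD 7.58, n = 4), and the difference was -0.22 with an SE of 0.0654 (adjusted p = 0.0987 in edgeR). The Tap1 difference was -0.34 with an SE of 0.113 (adjusted p = 0.134 in edgeR), and that of H2-K1 was -0.36 with an SE of 0.148 (adjusted p = 0.241 in edgeR). H2-D1 and Tap1 were the 2 members whose treatments did not overlap, against 16% of all genes. H2-D1 was the member called by DESeq2, with an adjusted p of 0.0336. DESeq2 gave an adjusted p to 6 of the members in this comparison, and it called 901 of 14810 genes. H2-D1 to B2m per kb was 1.142 to 1.35 in saline deep and 1.19 to 1.45 in cbx deep libraries.

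**Figure D3:**
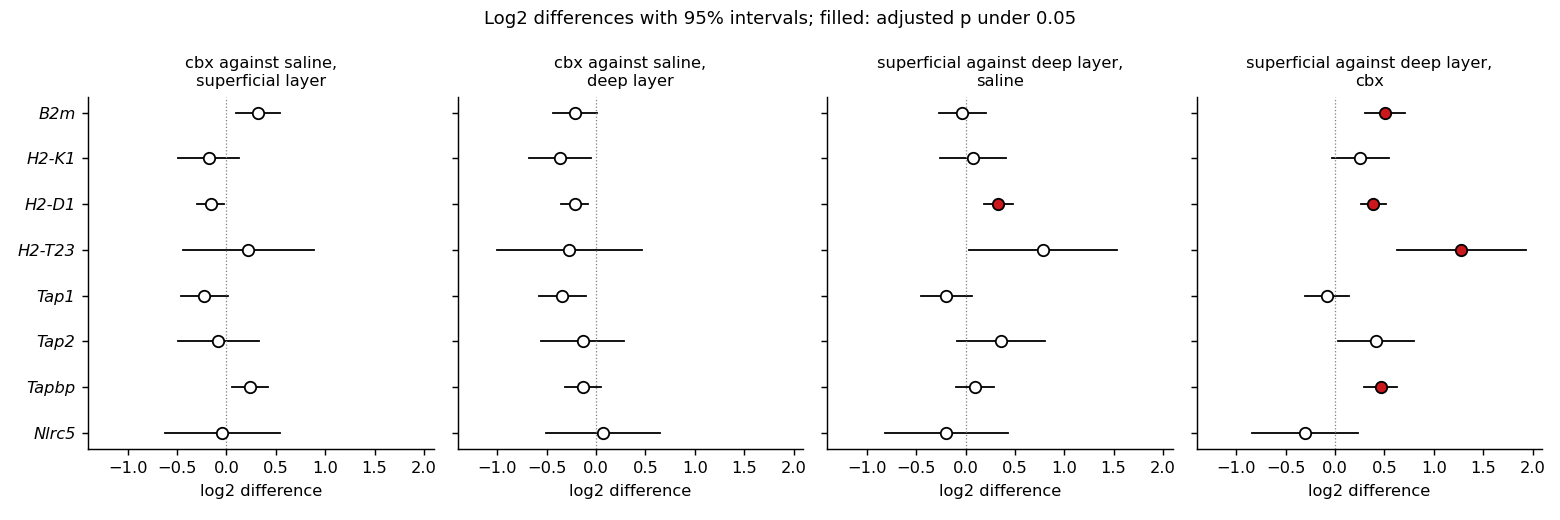
Log2 differences of the 8 members in 4 comparisons, with 95% intervals from the edgeR fit; filled points have an adjusted p under 0.05. No member is filled in either cbx comparison, H2-D1 is filled between the layers after saline, and B2m, H2-D1, H2-T23 and Tapbp are filled between the layers after cbx.

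Between the layers of saline pools, H2-D1 alone of the 8 passed the test. It was 1.26-fold higher in the superficial layer, with a difference of 0.33 and an SE of 0.0701 (adjusted p = 0.0018 in edgeR). Of all genes 18.4% passed, and 9.67% were higher in the superficial layer. B2m had a difference of -0.03, H2-K1 one of 0.07 and Tapbp one of 0.10, none of them past the threshold. The layers did not overlap for H2-D1, Tap1 and Nlrc5, against 36.7% of all genes.

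Between the layers of cbx pools, 4 members were higher in the superficial layer and none was lower, where 32.2% of all genes passed, 18.1% as higher and 14.1% as lower. B2m was 1.42-fold higher (log2 difference 0.51, SE 0.0989), Tapbp 1.38-fold (0.46, SE 0.0808), H2-D1 1.31-fold (0.39, SE 0.0608) and H2-T23 2.43-fold (1.28, SE 0.311). Their edgeR adjusted p-values were 0.000531 for B2m, 0.000167 for Tapbp, 5.22e-05 for H2-D1 and 0.00347 for H2-T23. With the pool as a replicate block, H2-K1 (0.24, adjusted p = 0.0201) and Tap2 (0.42, adjusted p = 0.0323) also passed in edgeR, so 6 of 8 were higher, against 20.7% of all genes. Both of these calls were lost without single pools, H2-K1 without cbx pool 1 or 4 and Tap2 without cbx pool 1, 2 or 3. Tap1 (-0.08) and Nlrc5 (-0.30) had estimates below 0. The members' median was 0.40, against 0.02 over all genes. The 4 calls held when each library was left out in turn. Superficial and deep libraries did not overlap for 5 members, the 4 called and Tap2, against 29.6% of all genes.

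Whether the cbx difference itself differs between layers was tested as an interaction. Without a block, edgeR called 0 of 20330 genes, while 8.36% had an unadjusted p under 0.05 and DESeq2 called 60. B2m had an interaction of 0.54 (SE 0.151, edgeR unadjusted p = 0.00215, adjusted p = 0.318), and Tapbp one of 0.37 (edgeR adjusted p = 0.433). With the pool as a replicate block, edgeR called 61 genes (0.3%), and B2m was among them with 0.53 (SE 0.0882, adjusted p = 0.00944), while Tapbp had an adjusted p of 0.116, and of 0.043 without cbx pool 4. The blocked call of B2m depended on the pools. It held without cbx pool 1, 2 or 4 and was lost without saline pool 1 (adjusted p = 0.0792), saline pool 2 (0.0558), saline pool 3 (0.0853) or cbx pool 3 (0.055).

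The layer difference was also taken within each pool. For B2m the superficial library was -0.11, 0.04 and -0.01 from its deep library, on the log2 scale, in saline pools 1 to 3, and 0.46, 0.55, 0.55 and 0.47 in cbx pools 1 to 4. For Tapbp it was 0.05, 0.10 and 0.14 in saline pools and 0.32, 0.58, 0.49 and 0.46 in cbx pools. In both genes the cbx pools lay above all saline pools (two-sided exact permutation p = 0.0571 for each, the smallest that 3 against 4 pools can give), and in 11.1% of all genes the pools of both treatments did not overlap. The other 6 members overlapped. H2-D1 was 0.22 to 0.47 in saline and 0.27 to 0.51 in cbx pools. H2-K1, H2-D1, Tap2 and Tapbp were higher in the superficial library in all 7 pools, as were 17.8% of all genes.

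**Figure D4:**
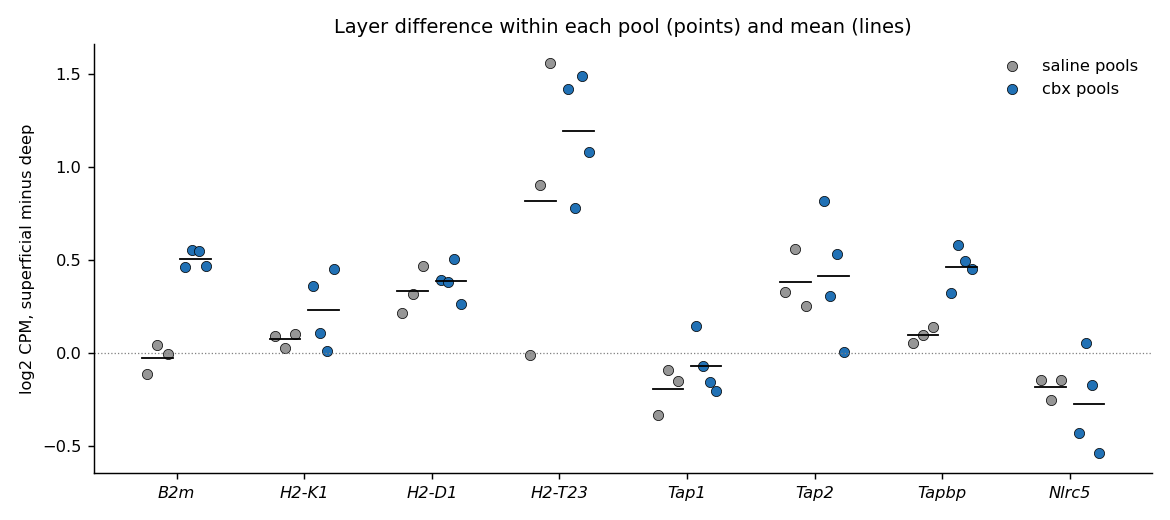
Superficial minus deep log2 CPM within each pool for the 8 members (points, saline grey and cbx blue) with the mean of each treatment (lines). The cbx pools of B2m lie at 0.46 to 0.55 and its saline pools at -0.11 to 0.04, while both treatments overlap for H2-D1.

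Pools of the same treatment also differed from each other in class I genes. A joint test of the 5 pool terms called B2m (edgeR adjusted p = 0.0265) and H2-K1 (edgeR adjusted p = 0.0262), 2 of 8 members, and 2.46% of all genes. B2m deviated to the same side of its group mean in both layers in 7 of 7 pools and Tapbp in 6. H2-K1 and Nlrc5 did so in 5, H2-T23, Tap1 and Tap2 in 4, and H2-D1 in 3. Nlrc5 did not pass the pool test (edgeR adjusted p = 0.902). Same-numbered libraries deviated together over the genes at large, so these counts are a description. For H2-K1, cbx pool 4 was the highest and cbx pool 2 the lowest cbx pool in both layers, while for B2m saline pool 1 was the highest saline pool in both. Saline pool 1 and cbx pool 4 are the pools that stood apart in sex-linked genes. Each of the 2 calls was lost when any of several pools was left out. Neither gene passed without saline pool 1, saline pool 3 or cbx pool 2; B2m alone passed without saline pool 2 or cbx pool 4, and H2-K1 alone without cbx pool 3. H2-D1, whose coding sequence is nearer to that of H2-K1 than is that of H2-T23, had an adjusted p of 0.785 in the same edgeR test.

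**Figure D5:**
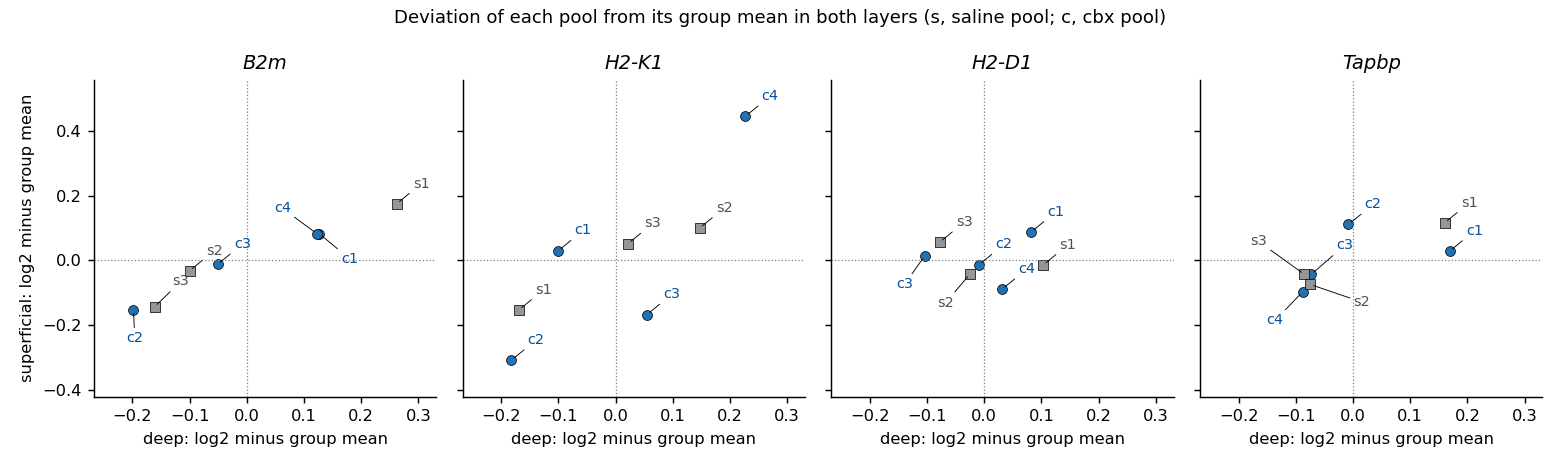
Deviation of each pool from its group mean on the log2 scale, in the deep (horizontal) and superficial (vertical) layer, for B2m, H2-K1, H2-D1 and Tapbp; grey squares (s) are saline pools and blue circles (c) are cbx pools, numbered as in the labels. The B2m pools lie along a rising diagonal, and H2-K1 spreads most, with cbx pool 4 at the top right and cbx pool 2 at the bottom left.

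Genes that cut, trim and fold class I peptides and chains were taken next. Of 15 tested, 1 was higher after cbx in the superficial layer, the aminopeptidase Npepps (0.24, SE 0.062, edgeR adjusted p = 0.0318), and none passed in the deep layer. Between the layers of cbx pools 5 were higher and none lower, among them Pdia3 (0.28), the chaperone ERp57 of the loading complex, and Erap1 (0.43), which trims peptides in the endoplasmic reticulum. Psme2 (0.26), a proteasome activator, Ube2l6 (0.82) and Hspa5 (0.18) were the others. Of all genes, 18.1% passed as higher and 14.1% as lower between these layers, and 4.33% passed in the superficial cbx comparison. Between the layers of saline pools only Psme1 passed, with -0.25. The inducible proteasome subunits Psmb8, Psmb9 and Psmb10 did not pass in any of these comparisons. Of 12 subunits of the standard proteasome, 1 passed between the layers of cbx pools and none elsewhere.

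Among 23 upstream regulators, Nfya, a subunit of the CCAAT-binding factor, was the only gene that passed in both layers after cbx. It was higher by 0.60 in the superficial (SE 0.0963, edgeR adjusted p = 0.00334) and by 0.44 in the deep layer (SE 0.0967, edgeR adjusted p = 0.0237). That is 1 of 23 regulators in each layer, against 4.33% of all genes in the superficial and 1.83% in the deep layer. Both comparisons are of cbx with saline pools, and the layers share those pools. The deep call of Nfya was lost without saline deep library 1, where none of the 23 regulators passed. Over all genes, 124 then passed in the deep layer, against 373 with all libraries. Between the layers, 4 regulators were higher and 1 lower after saline, and 8 were higher and 1 lower after cbx, against 18.4% and 32.2% of all genes that passed in either direction. Ifnar2, a chain of the type I interferon receptor (0.41 and 0.59), Creb1 (0.38 and 0.31) and Nfkb1 (0.35 and 0.32) were higher in both treatments, and Ifngr2, a chain of the interferon gamma receptor, was lower in both (-0.33 and -0.29).

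Of 25 genes of the interferon response, none passed in either cbx comparison with edgeR, with medians of 0.39 in the superficial and -0.20 in the deep layer. At an unadjusted p under 0.05 there were 4 and 8 genes, against 20.6% and 15.3% of all genes. Between the layers, 3 were higher after saline (Ifitm3, Bst2 and Ifi27) and 14 after cbx, with none lower in either. Of all genes, 9.67% were higher in the superficial layer after saline and 18.1% after cbx. Ifitm3, an antiviral membrane protein, was 2.06 higher on the log2 scale after saline and 2.71 after cbx. Of the 25 interaction estimates 23 were above 0, with a median of 0.61 against 0.002 over all genes, and none passed. The saline deep library of pool 1 stood apart in these genes: Cxcl10 was at 3.62 CPM there and at 0.0302 and 0 CPM in saline deep libraries 2 and 3, and Rsad2 was at 3.56 CPM there and at 0.423 and 0.55 CPM in those. Without that library the median of the 25 genes was 0.02 in the deep cbx comparison, where 1 had an unadjusted p under 0.05 in edgeR. The median was 0.32 in the interaction, where 19 were above 0, and between the saline layers it moved from -0.009 to 0.60, with 5 genes higher. B2m, which was also highest in that deep library among the saline libraries, then had a deep cbx estimate of -0.07 and an interaction of 0.39 (adjusted p = 0.645 in edgeR, without the block). Among class I receptors, 9 of 15 could be tested. Plxna4, an axon guidance receptor, was lower in the superficial layer after saline (-1.03) and after cbx (-1.32). Pirb, a class I receptor of myeloid cells and neurons, was at 0.0516 to 0.5 CPM in saline superficial and 0.256 to 0.645 CPM in cbx superficial libraries. It was higher than in the deep layer after cbx (2.67, SE 0.777, edgeR adjusted p = 0.0121), where it was at 0 to 0.175 CPM. The receptors Lilra5 (4.07, adjusted p = 0.00281) and Lilrb4a (2.96, adjusted p = 0.00346), known from myeloid cells, passed in the same edgeR comparison. These 3 rested on at most 27 reads per library, so their values carry much counting error.

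Markers of cells that carry much class I moved with the layers and, in part, with cbx. The 15 microglia genes summed to 338 to 364 CPM in saline superficial, 436 to 467 in cbx superficial, 546 to 580 in saline deep and 488 to 547 in cbx deep libraries. In the superficial layer 9 of them were higher after cbx, and in the deep layer none passed. Between layers 14 were lower in the superficial layer after saline, and 7 lower and 1 higher after cbx. Of all genes, 4.33% passed in the superficial cbx comparison, and between the layers 18.4% passed after saline and 32.2% after cbx. In the interaction, where B2m had 0.54, all 15 microglia genes had estimates above 0, with a median of 0.48. An unadjusted p under 0.05 in edgeR was seen in 12 of them, against 8.36% of all genes, but none passed after adjustment. The 9 border macrophage genes summed to 82.9 to 142 CPM in saline superficial and 120 to 253 in cbx superficial libraries, against 21.3 to 31.5 CPM in the deep libraries. Against the deep layer, all 9 passed as higher in the superficial layer after cbx and 8 after saline. None passed between cbx and saline in either layer. In the interaction 8 of 9 estimates were above 0, with a median of 0.86, and 2 had an unadjusted p under 0.05 in edgeR, but none passed after adjustment.

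The 17 genes of meningeal fibroblasts summed to 983 to 1408 CPM in saline superficial, 1197 to 2202 in cbx superficial, 456 to 587 in saline deep and 352 to 451 in cbx deep libraries. They passed as higher after cbx in 7 cases in the superficial layer and in none in the deep layer. Of all genes, 4.33% and 1.83% passed there in either direction. All 17 interaction estimates were above 0, with a median of 1.13. An unadjusted p under 0.05 in edgeR was seen in 12 of them, against 8.36% of all genes, but none passed after adjustment. The 15 endothelial genes summed to 591 to 618 CPM in saline superficial and 536 to 638 in cbx superficial libraries, against 303 to 407 in the deep libraries. Of them, 12 were higher and 1 was lower in the superficial layer in each treatment. Of all genes, 18.4% passed between the layers after saline and 32.2% after cbx. The endothelial interaction estimates were above 0 in 8 of 15 genes, with a median of 0.003, and 1 had an unadjusted p under 0.05 in edgeR. For the 10 genes of pericytes and mural cells, 6 interaction estimates were above 0, with a median of 0.19. Of 18 genes of other leukocytes, 8 could be tested, Ncr1, Gzma and Mcpt4 were at 0 in all libraries, and the list summed to 7.13 to 8.70 CPM in saline superficial, 9.47 to 13.5 in cbx superficial and 7.88 to 11.1 in the deep libraries. S100a9, a neutrophil and monocyte gene, was higher after cbx in the superficial layer (2.24, SE 0.601, adjusted p = 0.045 in edgeR), where the median of the list was 1.49. Between the layers 4 of these 8 were higher and 1 was lower after cbx, and none passed after saline. The 7 red blood cell genes tested summed to 149 to 231 CPM in saline superficial, 238 to 390 in cbx superficial and 127 to 188 in the deep libraries. Of them, Hbb-bt was higher after cbx in the superficial layer (0.81, SE 0.201, adjusted p = 0.0353 in edgeR). Between the layers 6 of 7 were higher after cbx and none passed after saline. The part of these cells in the differences of B2m, H2-D1, H2-T23 and Tapbp was not tested.

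The genes with the most similar profile over the 14 libraries were found for the 5 members with a mean of at least 5 CPM, as the smallest root mean square difference of centred log2 CPM among 11608 genes. Nearest to B2m were Decr1 (0.099), Erap1 (0.109) and Rin2 (0.111), where the median gene lay at 0.281. Nearest to Tapbp were Bcap31 and Plppr1 (0.085 each) and Rin2 (0.086). Scg3 (0.047), Slc35a4 (0.052) and Cep57 (0.06) were nearest to H2-D1, and Stim1 (0.096), Rnf24 (0.106) and Dyrk1a (0.107) to Tap1. H2-K1 had no neighbour as near, with Taf8 (0.157), Arl4a (0.158) and Fam76a (0.158). The libraries share their pools and depth, so these distances are a description.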

How the data were processed

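Poly-A RNA of 14 pooled libraries was sequenced in pairs of 150 bases, per the labels' protocols. The authors deposited raw whole-number read counts per Ensembl gene, 1 table of 55359 IDs per library. The submitters' processing notes name STAR 2.7.9d, featureCounts (Subread 2.0.1), SAMtools 1.14 and FastQC 0.11.9, and the builds GRCm39 and mm10, without roles. Annotation, strand setting and the handling of multi-mapping reads were not given in the sources used here. Symbols were matched for 52083 IDs, with 98.7% of counts.

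Counts were fitted with edgeR 4.0.16 in R 4.3.3: filterByExpr by group (20330 genes), TMM factors (0.949 to 1.037), 4 group means over all 14 libraries (10 residual degrees of freedom), robust quasi-likelihood F tests, and Benjamini-Hochberg adjustment over all tested genes with a threshold of 0.05. The script was tested on simulated data. CPM used the TMM factors, log2 CPM a prior count of 2, and levels per length the union of GENCODE M21 exons. Differences among pools were tested with 5 pool terms in a fit with 5 residual degrees of freedom. Totals of 32004952 to 48776827 counts set the precision, which is low for H2-T23 and Nlrc5.

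Replicate numbers come from the titles. Within a treatment, deviations of the superficial and deep library with 1 number had correlations of 0.182 to 0.394 in all 7 pairs, so the pool is a replicate block there. The highest correlation with a deep library of another number was lower in each pair, but only just for cbx pool 4 (0.173 against 0.194). Between treatments, same-numbered libraries of a layer correlated at -0.276 to -0.017, so those libraries share only a number. The alternatives tried were no filter, 1 CPM in 3 libraries, median-of-ratios size factors, DESeq2 1.42.0, voom in limma 3.58.1, only the groups compared, libraries left out, the 2 pools that stood apart in sex-linked genes left out, and the block, for cbx comparisons as a limma correlation of 0.205 within pools. The blocked fits without each pool, and the lists without saline deep library 1, were added after seeing the data. The text names the 8 members, the 3 nearest profiles of each, and up to 4 genes of a list with the smallest p-values or the highest levels, and further list genes that passed or are known parts of the pathway were named after their values were seen. The members and lists were chosen with earlier results of these data known.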

Additional observations from a re-analysis of the deposited data

Results flagged for a closer look

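The cbx difference of B2m differed between the layers in the fit with the replicate block, by 0.534 on the log2 scale (SE 0.0882, edgeR adjusted p = 0.00944). The layer difference was higher in 4 of 4 cbx pools than in any of the 3 saline pools. Without the block the interaction was 0.54 with an edgeR adjusted p of 0.318, and the blocked adjusted p ranged from 0.00251 to 0.0853 when each pool was left out. In the 16 groups of 4 libraries checked, all of them cbx groups, no member had a library that stood apart from the rest of its group. Chance marks about 1 in 20 such groups. The saline groups of 3 libraries, with saline deep library 1 among them, were not part of this check.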

How the results depend on the processing

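The 4 higher members between the layers of cbx pools and H2-D1 between the layers of saline pools kept their direction and call under all alternatives, from 0.27 to 0.39 for H2-D1 after saline when libraries or pools were left out. Low counts limit H2-T23 and Nlrc5. The cause of the changes below was not tested. Genes that passed after cbx numbered 880 in the superficial layer, 1459 with no filter, 1585 with DESeq2, 142 with only the groups compared, 91 without the 2 pools and 140 to 907 with a library left out; in the deep layer they numbered 373, then 566, 901, 611, 14 and 42 to 737. Between the saline layers there were 3739, 2133 without the 2 pools and 2685 to 5332 with libraries or pools left out; after cbx 5391 to 7914, with 4 to 6 members. The interaction called 0 genes, 256 with no filter, 60 with DESeq2, 61 with the replicate block and 0 to 922 with libraries or pools left out, with 0 to 2 members. Differences among pools were called in 500 genes, 2122 with no filter and 176 to 2323 with a pool left out (0 to 2 members).

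Members called in the superficial cbx comparison rose from 0 to 1 with no filter (B2m, adjusted p = 0.0185) and were 0 with each library left out. In the deep comparison they rose to 1 with no filter (H2-K1, 0.0269), with DESeq2 (H2-D1, 0.0336) and without cbx superficial replicate 1 (H2-D1, 0.0492). In the interaction 1 member, B2m, passed with no filter (0.00947) and with the replicate block. The pairing of layers changed no other call than those given above.

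Small estimates that never passed changed sign. Without the 2 pools, Tap2 after cbx became 0.037 in the superficial and Nlrc5 -0.14 in the deep layer, B2m 0.020 between the saline layers and Nlrc5 0.022 in the interaction. With a library left out, the ranges in the superficial cbx comparison were -0.24 to 0.021 for Tap2 and -0.12 to 0.025 for Nlrc5; in the deep one -0.59 to 0.085 for H2-T23, -0.36 to 0.032 for Tap2 and -0.12 to 0.15 for Nlrc5. Between the saline layers they were -0.12 to 0.11 for B2m and -0.0062 to 0.15 for H2-K1, and in the interaction -0.11 to 0.28 for Tap2 and -0.19 to 0.082 for Nlrc5. With the block, B2m between the saline layers became 0.0195 without saline pool 1; in the interaction H2-D1 became -0.0043 and H2-T23 -0.027 without that pool, and Tap2 -0.024 without saline pool 3 and -0.093 without cbx pool 1. That blocked interaction called 40, 5 and 5 genes without saline pools 1, 2 and 3, and 88, 60, 18 and 922 without cbx pools 1 to 4. With the longest transcript as length, levels were 14.1 CPM per kb for H2-K1, 81.4 for H2-D1, 3.47 for Tap1 and 10.7 for Tapbp.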

Other observations

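Other class I heavy chains were described as a list. Of 18 listed, 17 had an ID and 13 could be tested, and none passed in either cbx comparison with edgeR. There 0 in the superficial and 2 in the deep layer (H2-M5 and H2-T10) had an unadjusted p under 0.05, against 20.6% and 15.3% of all genes. Between the layers 10 of 13 estimates were above 0 after saline (median 0.24) and 9 of 13 after cbx (median 0.20), and in each treatment 1 gene passed as higher and 1 as lower. Of all genes, 18.4% passed after saline and 32.2% after cbx. H2-Q2 was lower in the superficial layer. Saline libraries had 4.58 CPM in the deep (SD 0.772, n = 3) and 1.53 CPM in the superficial layer (SD 0.256, n = 3), which is -1.58 on the log2 scale with an SE of 0.231 (adjusted p = 4.86e-05 in edgeR), and after cbx the value was -2.02. H2-Q4 was higher in the superficial layer after saline (0.52) and after cbx (0.57). These genes share sequence with their neighbours in the same cluster, so their counts are uncertain.

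Among class I-like molecules, Fcgrt encodes the heavy chain of the neonatal Fc receptor, which also pairs with B2m. In the superficial layer its mean was 31.2 CPM in saline (SD 3.05, n = 3) and 49.3 CPM in cbx libraries (SD 5.9, n = 4), which is 0.66 on the log2 scale with an SE of 0.11 (adjusted p = 0.00375 in edgeR), against 11.3 CPM in the deep libraries of both treatments. Mr1, Ulbp1 and Procr were also higher in the superficial layer of both treatments. Of 11 class II genes tested none passed after cbx. Between the layers, 1 was higher and 4 were lower after saline, and 2 were higher and 1 lower after cbx, against 18.4% and 32.2% of all genes that passed. H2-Eb1 was higher (1.36 and 1.16) and H2-DMb2 lower (-0.97 and -0.91) in the superficial layer of both.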
